A study of Mus musculus with 15 samples.

Results

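The transcripts of 6 signal transducers and activators of transcription (STATs) and 3 Janus kinases (JAKs) were followed in macrophages with and without STAT5. The genes, Stat2, Stat3, Stat4, Stat5a, Stat5b, Stat6, Jak1, Jak3 and Tyk2, were chosen by name from the table of gene counts, as 9 of the 55385 genes it lists, to see whether other members of these families change when STAT5 is missing. Bone marrow-derived macrophages (BMDMs) came from BALB/c mice aged 6 wk that carried floxed Stat5 alleles, either without Cre (STAT5fl/fl, 2 mice) or crossed to Csf1r-iCre (STAT5cKO, 3 mice). The BMDMs of each mouse were kept for 2 h in serum-free DMEM, in 20 ng/mL recombinant mouse GM-CSF (rmGM-CSF), or in medium conditioned by 4T1 mouse mammary tumor cells (4T1 CM). This gave 15 libraries in 6 groups of genotype and treatment. Csf1r-iCre acts in myeloid cells and not in macrophages alone, so the STAT5cKO BMDMs had matured from precursors in which the alleles could already be recombined. The STAT5fl/fl controls lack Cre, and an effect of Cre itself cannot be told apart from that of the deletion. The number that opens each library label was taken to name the mouse, which the labels do not state.

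JAKs are tyrosine kinases bound to the inner side of cytokine receptors, and they phosphorylate STATs, which then pair, enter the nucleus and bind DNA. GM-CSF acts through a receptor whose common beta chain passes the signal mainly to STAT5 in macrophages. STAT3 carries signals of the IL-6 and IL-10 families, STAT4 of IL-12, STAT6 of IL-4 and IL-13, and STAT2 of the type I interferons. JAK1 serves many of these receptors, JAK3 pairs with the common gamma chain, and TYK2 works with the receptors of type I interferons, IL-12 and IL-10. The data are transcript levels and hold no measure of phosphorylation or protein.

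Library totals ranged from 16016736 to 22883108 counts. Levels are given as CPM, counts scaled to the library total, after normalization for library composition. All 8 macrophage markers examined were present in every library, with Csf1r between 3825 and 4204 CPM. The summed CPM of these 8 markers was higher in each STAT5cKO group (30144 to 35827 in DMEM, 32802 to 35907 under rmGM-CSF and 33848 to 43082 under 4T1 CM) than in the STAT5fl/fl group of the same treatment (24004 to 24324, 24115 to 25434 and 26818 to 27513), and most of that sum was Lyz2. Summed markers of T cells, B cells, neutrophils and dendritic cells stayed under 5 CPM in all libraries and those of NK cells were at 0. Summed fibroblast markers, mostly Col1a1 and Col1a2, ranged from 2.55 to 8.56 CPM in STAT5cKO and from 1.001 to 2.27 CPM in STAT5fl/fl libraries. Epithelial markers, read for carry-over of 4T1 cells, summed to 3.16 to 4.34 CPM in STAT5fl/fl and 1.23 to 2.17 CPM in STAT5cKO with 4T1 CM. They were at 1.18 to 1.43 CPM in STAT5fl/fl with rmGM-CSF and at most 0.137 CPM in the other groups. Cdh1 had the highest counts of these, up to 84 in a library. Epcam, Krt8, Krt18 and Krt14 had at most 4, 1, 2 and 0 counts in a library. The part of these differences in the results was not tested.

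Stretches of 250 bases before the transcription start of the 9 genes, taken from RefSeq on GRCm38.p6, were searched on both strands for 3 motifs. TTCNNNGAA is the spacing that most STATs bind, TTCNNNNGAA is the wider spacing preferred by STAT6, and GAAANNGAAA is the core of the element bound by the interferon-activated complex that holds STAT2. All 9 genes matched, with 12 start sites. No member's window held TTCNNNGAA, which 7.02% of all 32851 windows of this length held. The windows of Stat3, Stat4 and Jak3 are shown because these genes had the largest responses to 4T1 CM, and that of Stat2 because it held both other motifs. For Stat4 the window shown is that of its second start, which held a motif. Capitals mark a motif, and each line runs 5′ to 3′ on the strand of the gene up to the base before its start.
Stat3, chr11:100939541-100939790, minus strand: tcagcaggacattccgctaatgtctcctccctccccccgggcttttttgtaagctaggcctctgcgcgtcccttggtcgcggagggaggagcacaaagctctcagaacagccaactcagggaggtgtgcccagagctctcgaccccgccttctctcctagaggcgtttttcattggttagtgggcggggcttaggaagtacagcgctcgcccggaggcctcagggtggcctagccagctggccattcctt
Jak3, chr8:71676133-71676382, plus strand: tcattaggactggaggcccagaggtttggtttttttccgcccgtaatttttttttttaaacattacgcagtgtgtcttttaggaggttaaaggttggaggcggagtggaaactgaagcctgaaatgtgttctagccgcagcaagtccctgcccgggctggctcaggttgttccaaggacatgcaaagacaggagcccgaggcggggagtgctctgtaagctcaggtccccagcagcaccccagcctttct
Stat4, second start site, chr1:52007990-52008239, plus strand: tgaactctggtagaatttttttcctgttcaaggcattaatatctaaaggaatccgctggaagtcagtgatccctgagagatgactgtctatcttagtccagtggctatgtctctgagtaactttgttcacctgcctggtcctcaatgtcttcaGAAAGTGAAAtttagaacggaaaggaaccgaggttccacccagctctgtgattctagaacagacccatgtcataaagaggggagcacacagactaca
Stat2, chr10:128270248-128270497, plus strand: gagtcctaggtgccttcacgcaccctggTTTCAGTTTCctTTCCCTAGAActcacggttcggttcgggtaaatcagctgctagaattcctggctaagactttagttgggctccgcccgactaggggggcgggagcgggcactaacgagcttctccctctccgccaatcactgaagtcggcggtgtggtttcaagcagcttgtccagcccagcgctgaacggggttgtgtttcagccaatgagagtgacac

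In the Stat2 window GAAANNGAAA was read on the other strand, as TTTCAGTTTC from 222 to 213 bases before the start, and TTCCCTAGAA, a match to TTCNNNNGAA, lay from 210 to 201 bases before it, without overlap. The Stat4 window held GAAAGTGAAA from 97 to 88 bases before its second start. Of all windows, 5.85% held TTCNNNNGAA and 2.98% held GAAANNGAAA. The windows of Stat3 and Jak3, and that of the first Stat4 start (chr1:51986898-51987147), held none of these letters. A match describes the letters of the window and not a site in use.

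Stat5a and Stat5b, the deleted genes, were read first as a check on the labels. Stat5a had 918 counts at most in a STAT5fl/fl library and 0 to 3 counts in each STAT5cKO library. Stat5b had up to 1654 counts in STAT5fl/fl and 0 to 4 counts in STAT5cKO. Summed over libraries, Stat5a gave 4551 counts in the 6 STAT5fl/fl libraries and 14 in the 9 STAT5cKO libraries, and Stat5b gave 8113 and 16. Each library thus went with its label for both genes, in all 3 treatments.

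**Figure D1:**
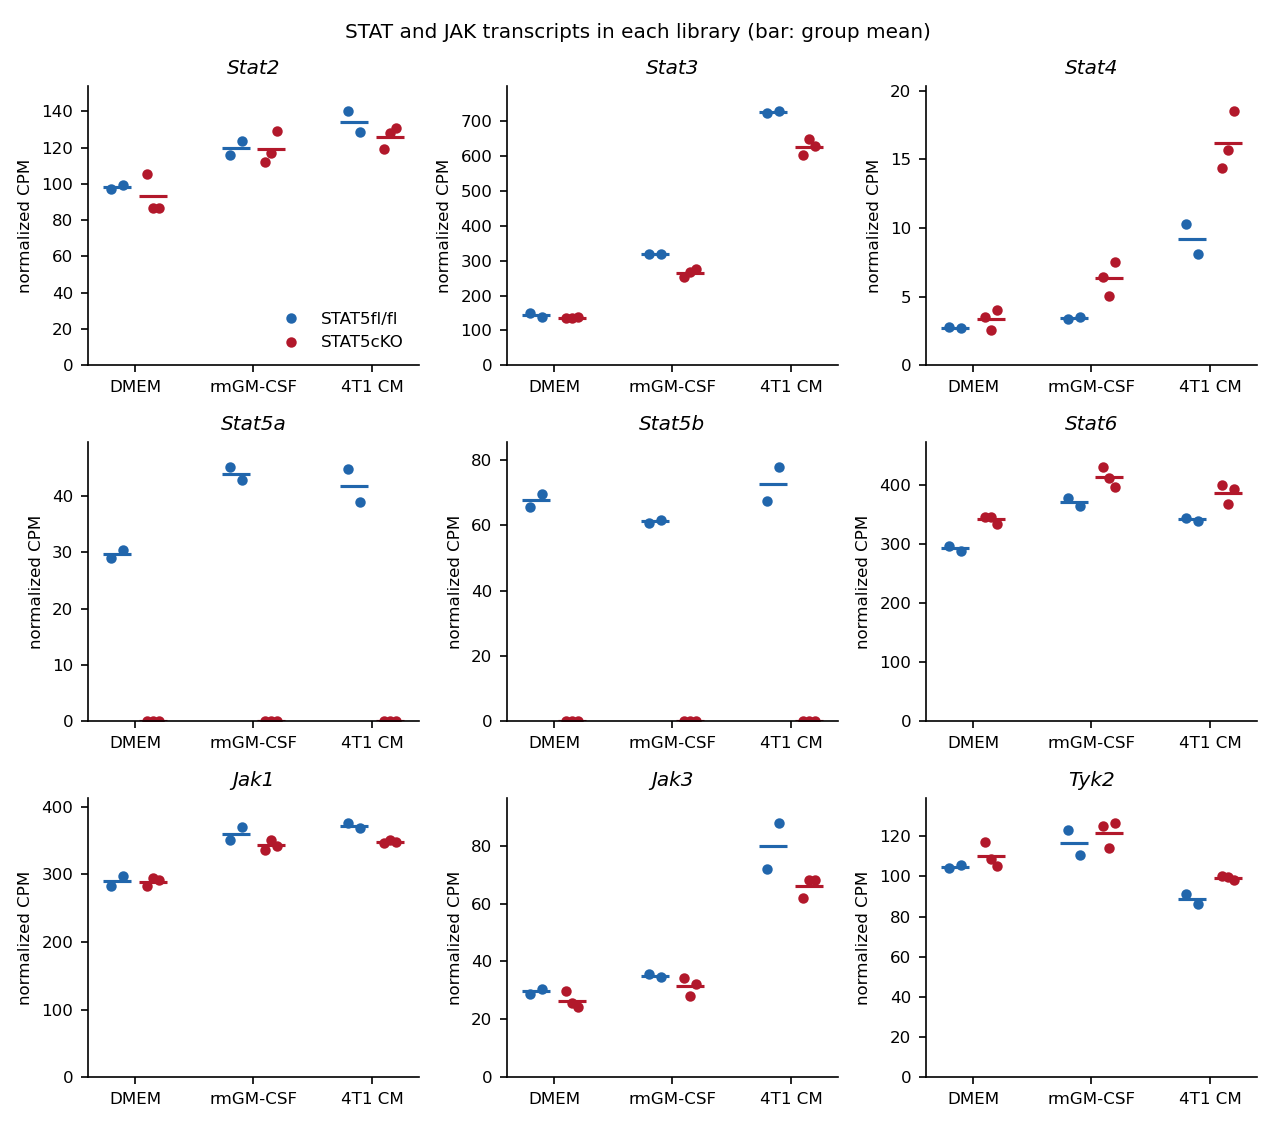
Normalized CPM (vertical axes, from 0, different for each gene) of the 9 genes in each of the 15 libraries, by treatment, with STAT5fl/fl in blue, STAT5cKO in red and a bar at each group mean. Stat5a and Stat5b lie at the base line in all 9 STAT5cKO libraries, Stat3 rises from DMEM to rmGM-CSF to 4T1 CM in both genotypes, and the red points of Stat6 lie above the blue points in every treatment.

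Both deleted genes lie on chromosome 11 next to Stat3. On GRCm38, Stat5b spans chr11:100780731-100850724 on the minus strand, Stat5a chr11:100859351-100885169 on the plus strand, and Stat3 chr11:100885098-100939540 on the minus strand. The gap between Stat5b and Stat5a is 8.63 kb, while the 3′ ends of Stat5a and Stat3 overlap by 72 bp on opposite strands. The counts were made by strand, so reads of the overlap were assigned by the strand they came from. Of the 7 other tested genes around this locus, from Dhx58 to Atp6v0a1, the pair beyond Stat3 was called by genotype. Cavin1, the nearer one, was lower in STAT5cKO with rmGM-CSF by 0.95 (log2, SE 0.21, adjusted p = 0.00421), and with DMEM and 4T1 CM its adjusted p was 0.394 and 0.124. Atp6v0a1, a subunit of the vacuolar proton pump, had log2 fold changes of -1.16 (SE 0.07, adjusted p = 4.83e-09) with rmGM-CSF, -0.71 (SE 0.07, adjusted p = 5.58e-06) with 4T1 CM and -0.20 (adjusted p = 0.126) with DMEM. Among all tested genes, a genotype call was made for 9.8% under rmGM-CSF, 7.7% under 4T1 CM and 2.49% in DMEM. On the Stat5b side none of the 5 tested genes passed, and at these shares so few genes cannot set the sides apart. The nearest, Ghdc, had log2 differences of 0.11, 0.06 and 0.13 with DMEM, rmGM-CSF and 4T1 CM. The widest differences there were those of Kcnh4, at no more than 43 counts in a library, with -1.96 (adjusted p = 0.0339), -1.87 (0.0201) and -0.80 (0.177). These 4 genes were named for their position or size of difference, after their values were seen.

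To compare levels between genes, the normalized CPM was divided by the exon length of each gene in kb (FPKM). This length sums all annotated exons of a gene, 9527 bases for Stat3 and 4402 for Stat6, and not those of the transcripts in use. Orders, ratios, shares and sums of FPKM between genes depend on it. Stat6 had the highest FPKM of the 9 genes in all 6 groups, with a mean of 66.4 ± 1.43 (SD, n = 2) in STAT5fl/fl with DMEM. Jak1 was next with DMEM, at 40.2 ± 1.43 (SD, n = 2). Stat2, Tyk2, Stat3 and Stat5b followed between 16.6 and 12.2, and the ranges of Tyk2 and Stat3 overlapped, so that their order is not set. Jak3 at 5.54 ± 0.246, Stat5a at 4.16 ± 0.132 and Stat4 at 0.707 ± 0.0141 (SD, n = 2 each) were the lowest.

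Treatment changed the order. Stat3 stood at 15.2 FPKM in STAT5fl/fl cells given DMEM, 33.5 under rmGM-CSF and 76.1 under 4T1 CM, where it came directly below Stat6 at 77.5. In CPM, not divided by length, Stat3 was above Stat6 in that group, at 725 against 341. In STAT5cKO with 4T1 CM the gap between Stat6 at 87.7 ± 3.83 and Stat3 at 65.7 ± 2.37 (SD, n = 3) was wider, and the ranges of these genes did not overlap in either genotype. Jak3 and Stat5b in STAT5fl/fl with 4T1 CM, at 14.9 and 13.1 FPKM, overlapped, as did Stat5b and Tyk2 at 12.9. Stat4 remained the lowest of the genes that were not deleted in every group, at 2.37 ± 0.396 (n = 2) in STAT5fl/fl and 4.17 ± 0.547 (n = 3) in STAT5cKO with 4T1 CM.

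**Figure D2:**
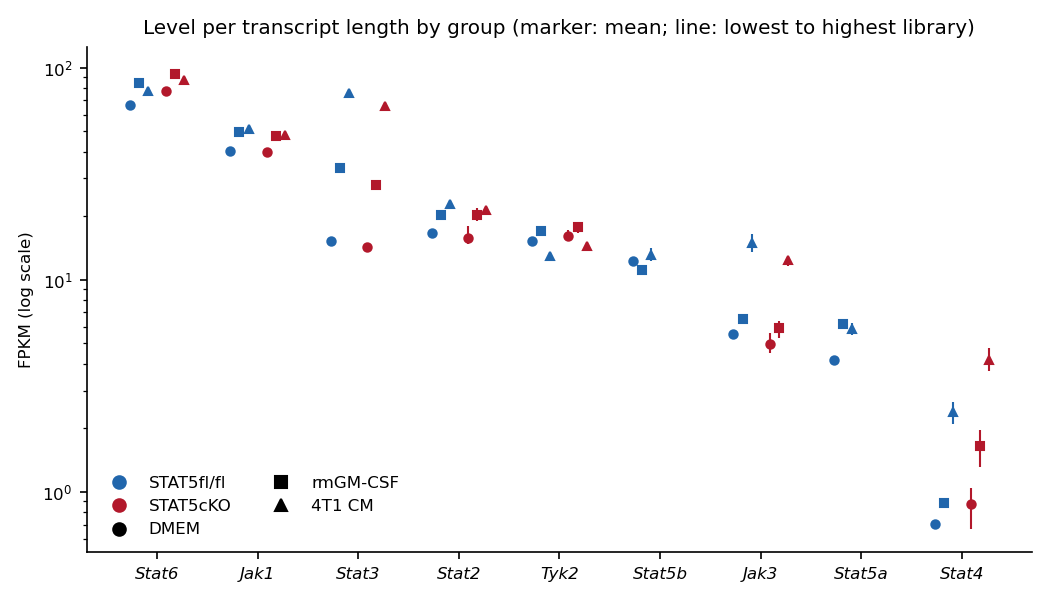
FPKM (log scale) of each gene in the 6 groups, with a marker at the group mean and a line from the lowest to the highest library, color for genotype and shape for treatment. Stat6 is highest and Stat4 lowest of the genes that were not deleted, Stat3 moves from about the level of Stat2 and Tyk2 with DMEM to near that of Stat6 with 4T1 CM, and Stat5a and Stat5b are drawn for STAT5fl/fl alone.

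The STAT5 transcripts were a minor share of the FPKM of the 6 STAT genes. In STAT5fl/fl, Stat5a and Stat5b together made up 14.2% of this sum in DMEM, 11.04% under rmGM-CSF and 9.61% under 4T1 CM. Stat5b was the more abundant, with a ratio of Stat5b to Stat5a FPKM of 2.94 ± 0.0334 in DMEM, 1.79 ± 0.0767 under rmGM-CSF and 2.26 ± 0.441 under 4T1 CM (SD, n = 2 each). Stat6 made up 57.6% of the sum in STAT5fl/fl and 71.5% in STAT5cKO with DMEM, and with 4T1 CM 39.2% and 49.0%. The deletion removes Stat5a and Stat5b from this sum, so the shares of the other genes rise even where their levels do not.

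The loss of the STAT5 transcripts was set against the sum of the other 4 STAT genes, Stat2, Stat3, Stat4 and Stat6. With DMEM this sum was 97.3 and 100.4 FPKM in the STAT5fl/fl libraries and 106 to 111 in the STAT5cKO libraries, so the groups did not overlap and the means, 98.9 ± 2.20 (SD, n = 2) and 108 ± 2.68 (SD, n = 3), lay apart by less than the 16.4 FPKM of Stat5a and Stat5b in STAT5fl/fl. With rmGM-CSF the means were 139 ± 1.06 and 143 ± 1.05, and with 4T1 CM they were 179 ± 2.04 and 179 ± 2.56, where the ranges overlapped. The sum of all 6 STAT genes was therefore lower in STAT5cKO than in STAT5fl/fl in each treatment, at 108 against 115, 143 against 156 and 179 against 198 FPKM. The sum of the 3 JAK genes was 61.1 ± 0.889 in STAT5cKO and 61.0 ± 1.83 in STAT5fl/fl with DMEM, 71.1 ± 0.650 and 73.4 ± 0.590 with rmGM-CSF, and 75.1 ± 0.846 and 79.3 ± 0.850 with 4T1 CM (SD, n = 3 and 2). These sums are descriptions without a test, and they are led by the most abundant genes.

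The 7 other genes were called for genotype in numbers near the share of all tested genes. Gene by gene, edgeR's quasi-likelihood test with Benjamini-Hochberg adjustment over 13005 genes and an adjusted p under 0.01 called 0 of 7 with DMEM, where 2.49% of all tested genes were called. By the same rule 1 of 7 was called with rmGM-CSF (9.8% of all genes, 6.24% lower), Stat3, which was lower in STAT5cKO, and 1 of 7 with 4T1 CM (7.7% of all genes, 4.13% higher), Stat4, which was higher. At an unadjusted p under 0.05, edgeR gave 1, 3 and 5 of the 7 genes with DMEM, rmGM-CSF and 4T1 CM, and DESeq2 called 1, 2 and 2 at an adjusted p under 0.01. The libraries of the genotypes did not overlap for 1, 4 and 6 of the 7 genes, against 39.9%, 49% and 39.3% of all tested genes.

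**Figure D3:**
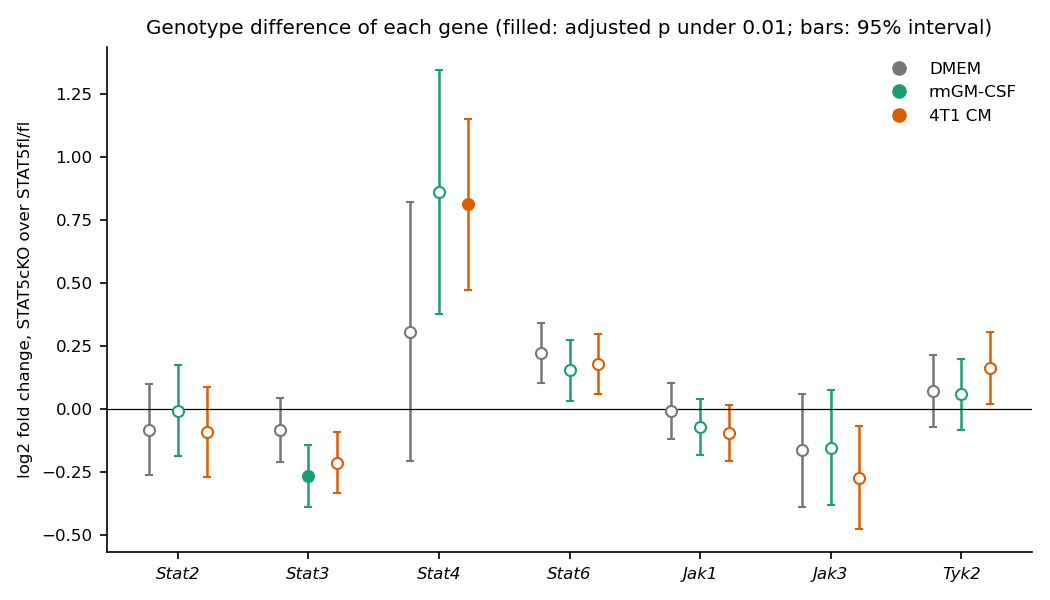
Log2 fold change of STAT5cKO over STAT5fl/fl (vertical axis) for the 7 genes that were not deleted, by treatment, with 95% intervals from the edgeR fit and filled points where the adjusted p was under 0.01. Filled points are Stat3 with rmGM-CSF at -0.26 and Stat4 with 4T1 CM at 0.81, and the intervals of Stat6 lie above 0 in all 3 treatments.

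Stat3 was called lower in STAT5cKO BMDMs with rmGM-CSF. With rmGM-CSF it was at 319 and 318 CPM in the STAT5fl/fl libraries of mice 112 and 113, and at 253, 266 and 277 CPM in the STAT5cKO libraries of mice 114, 115 and 116. The groups did not overlap, and the log2 fold change was -0.26 (SE 0.06, edgeR adjusted p = 0.00432), a 1.2-fold lower level. With 4T1 CM the values were 723 and 727 against 603, 648 and 628 CPM, again without overlap, for a log2 fold change of -0.21 (SE 0.06) that did not pass the test (edgeR adjusted p = 0.0206). DESeq2 called this 4T1 CM difference (adjusted p = 0.00437). With DMEM the values of 151 and 138 against 135, 137 and 138 CPM overlapped (log2 fold change -0.08, SE 0.06, adjusted p = 0.458). The rmGM-CSF call was lost without mouse 112, 113, 114 or 115, with log2 fold changes of -0.26, -0.26, -0.23 and -0.27 and adjusted p of 0.0351, 0.0442, 0.0292 and 0.0206. Without mouse 116 it was kept.

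Stat4 was the member with the largest genotype difference, at a low level. With 4T1 CM it was at 10.3 and 8.11 CPM in STAT5fl/fl (mice 112 and 113) and at 14.3, 15.6 and 18.5 CPM in STAT5cKO (mice 114, 115 and 116). All STAT5cKO libraries were above both STAT5fl/fl libraries, and the log2 fold change was 0.81 (SE 0.16, edgeR adjusted p = 0.00216), a 1.76-fold higher level. With rmGM-CSF the values were 3.37 and 3.49 CPM against 6.43, 5.04 and 7.54 CPM, also without overlap. That log2 fold change of 0.86 (SE 0.23) had an edgeR adjusted p of 0.0149 and was not called, although DESeq2 called it (adjusted p = 0.00191). With DMEM, Stat4 was at 2.78 and 2.70 CPM against 3.54, 2.57 and 4.04 CPM, and these overlapped (log2 fold change 0.31, SE 0.24, adjusted p = 0.502). The 4T1 CM call was lost without mouse 112 (0.996 log2, adjusted p = 0.0141) or mouse 113 (0.65 log2, adjusted p = 0.0975), and in a model of the 4T1 CM libraries alone (0.80 log2, adjusted p = 0.0163). The rmGM-CSF difference was called without mouse 115 (1.02 log2, adjusted p = 0.00519).

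Stat6 lay above STAT5fl/fl in every STAT5cKO library, by margins that did not pass the test. With DMEM it was at 297 and 288 CPM in STAT5fl/fl and at 345, 345 and 334 CPM in STAT5cKO. With rmGM-CSF the values were 377 and 365 against 429, 412 and 396 CPM, and with 4T1 CM 343 and 339 against 399, 367 and 392 CPM. The genotypes did not overlap in any of the 3 treatments. The log2 fold changes were 0.22, 0.15 and 0.18, each with an SE of 0.06, and none was called by edgeR (adjusted p = 0.0252, 0.0735 and 0.0411). DESeq2 called the difference with DMEM (adjusted p = 0.00278). The 3 comparisons use libraries of the same 5 mice and are not independent of each other.

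Stat2 passed the test for genotype in no treatment. Its values were 97.3 and 99.5 against 105.6, 86.8 and 86.9 CPM with DMEM, and they overlapped in all 3 treatments. The log2 fold changes were -0.08, -0.01 and -0.09, with 95% intervals from -0.26 to 0.10, from -0.19 to 0.18 and from -0.27 to 0.09. These intervals leave room for a difference of up to about 0.27 on the log2 scale.

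None of the 3 kinase genes passed the test for genotype. Jak1 had log2 fold changes of -0.01, -0.07 and -0.09 with DMEM, rmGM-CSF and 4T1 CM, and the 95% interval with 4T1 CM ran from -0.20 to 0.02. Its 4T1 CM libraries did not overlap, at 375 and 368 CPM in STAT5fl/fl and 347, 351 and 348 CPM in STAT5cKO. Jak3 was at 72.0 and 87.6 CPM in STAT5fl/fl and at 61.8, 68.2 and 68.2 CPM in STAT5cKO with 4T1 CM, where the groups did not overlap, but the log2 fold change of -0.27 (SE 0.10) was not called (edgeR adjusted p = 0.0695). With rmGM-CSF the Jak3 libraries did not overlap either, at 35.5 and 34.6 against 34.3, 28.2 and 32.3 CPM (edgeR adjusted p = 0.383). Tyk2 with 4T1 CM was at 91.2 and 86.1 against 100.2, 99.7 and 98.2 CPM, also apart (log2 fold change 0.16, SE 0.07, adjusted p = 0.121).

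More of the 7 genes were called for treatment than for genotype, which also held for all tested genes. With rmGM-CSF against DMEM, edgeR called 3 of the 7 genes in STAT5fl/fl (28.5% of all tested genes, 15.9% higher) and 5 of 7 in STAT5cKO (23.5%, 13.3% higher), all of them higher. With 4T1 CM against DMEM it called 6 of 7 in STAT5fl/fl (37.4%, 19.2% higher) and 6 of 7 in STAT5cKO (37.6%, 19.3% higher), again all higher. Between 4T1 CM and rmGM-CSF, 4 of 7 were called in STAT5fl/fl (30.5%, with 13.8% higher and 16.7% lower) and 4 of 7 in STAT5cKO (34.1%, with 16.6% and 17.5%), and in each genotype 3 were higher and 1, Tyk2, was lower with 4T1 CM. The comparisons within a genotype share their DMEM or rmGM-CSF libraries.

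Stat3 had the largest response to rmGM-CSF. In STAT5fl/fl it went from 151 and 138 CPM with DMEM to 319 and 318 CPM with rmGM-CSF (log2 fold change 1.14, SE 0.07, edgeR adjusted p = 2.85e-10), and in STAT5cKO from 135 to 138 CPM up to 253 to 277 CPM (0.96, SE 0.05, adjusted p = 2.76e-10). With 4T1 CM it reached 723 and 727 CPM in STAT5fl/fl, 5.02-fold above DMEM (log2 fold change 2.33, SE 0.07, adjusted p = 5.36e-14), and 603 to 648 CPM in STAT5cKO, 4.59-fold above DMEM (2.20, SE 0.05, adjusted p = 3.35e-15). No library of a treatment overlapped one of another treatment, in either genotype. These calls held without each of the 5 mice.

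Stat4 and Jak3 rose mainly with 4T1 CM. Stat4 was 3.36-fold above DMEM in STAT5fl/fl (log2 fold change 1.75, SE 0.23, edgeR adjusted p = 5.68e-06) and 4.76-fold above it in STAT5cKO (2.25, SE 0.16, adjusted p = 3.25e-09). With rmGM-CSF, Stat4 was called in STAT5cKO (0.88, SE 0.19, adjusted p = 0.00168), though not without mouse 114 (0.88, adjusted p = 0.0159), and in STAT5fl/fl it was 0.33 (SE 0.28) above DMEM with an adjusted p of 0.383. Jak3 was at 28.7 and 30.6 CPM with DMEM, at 35.5 and 34.6 with rmGM-CSF and at 72.0 and 87.6 with 4T1 CM in STAT5fl/fl. Its 4T1 CM libraries stood apart from the others, by 2.69-fold over DMEM in STAT5fl/fl (log2 fold change 1.43, SE 0.11, adjusted p = 1.13e-08) and 2.49-fold in STAT5cKO (1.32, SE 0.09, adjusted p = 2.23e-09). With rmGM-CSF, Jak3 was not called in either genotype (adjusted p = 0.113 and 0.0526).

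**Figure D4:**
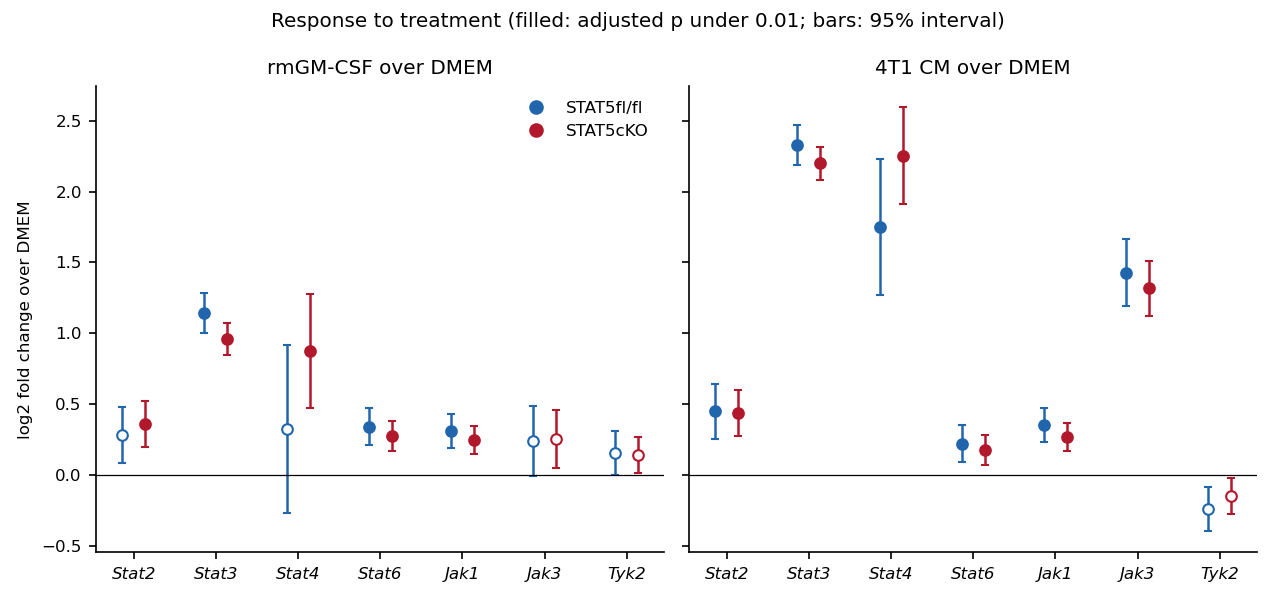
Log2 fold change over DMEM (vertical axes) with rmGM-CSF (left) and 4T1 CM (right) for the 7 genes that were not deleted, in STAT5fl/fl (blue) and STAT5cKO (red), with 95% intervals and filled points where the edgeR adjusted p was under 0.01. Stat3, Stat4 and Jak3 stand above 1 with 4T1 CM in both genotypes, Tyk2 is the only gene below 0, and the intervals of the genotypes overlap for every gene.

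Stat6, Jak1 and Stat2 rose by less. With rmGM-CSF, Stat6 was 1.27-fold (edgeR adjusted p = 0.000272) and Jak1 1.24-fold (adjusted p = 0.000333) above DMEM in STAT5fl/fl, and 1.21-fold (0.000417) and 1.19-fold (0.000563) in STAT5cKO. Stat2 was 1.22-fold above DMEM in STAT5fl/fl, which was not called (adjusted p = 0.0233), and 1.28-fold in STAT5cKO (adjusted p = 0.00151). With 4T1 CM, Stat2 was 1.37-fold (adjusted p = 0.000691), Stat6 1.17-fold (0.00649) and Jak1 1.28-fold (6.18e-05) above DMEM in STAT5fl/fl, and 1.35-fold (0.000125), 1.13-fold (0.00701) and 1.2-fold (0.000127) in STAT5cKO. Several of these calls rest on all mice. Without mouse 112 or 113, the rmGM-CSF calls of Stat6 (adjusted p = 0.0159 and 0.0172) and Jak1 (0.0115 and 0.0156) in STAT5fl/fl were lost, as was the 4T1 CM call of Stat2 (0.0541 and 0.0114). Without mouse 115, Jak1 with rmGM-CSF in STAT5cKO was lost (0.0120), and Stat2 there was lost without mouse 115 or 116 (0.0246 and 0.0474). Stat6 with 4T1 CM lost its call in STAT5cKO without any of the mice 112 to 116 (0.0131 to 0.0742) and in STAT5fl/fl without any but mouse 114 (0.0108 to 0.108), and in both genotypes without the filter on low counts (0.0175 and 0.0156) and in models of a single comparison (0.0334 and 0.0264).

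Tyk2 was the member with lower levels after 4T1 CM. In STAT5fl/fl it was at 104 and 105 CPM with DMEM, 123 and 111 CPM with rmGM-CSF and 91.2 and 86.1 CPM with 4T1 CM. In STAT5cKO the values were 117, 108 and 105 CPM with DMEM, 125, 114 and 126 CPM with rmGM-CSF and 100.2, 99.7 and 98.2 CPM with 4T1 CM. The 4T1 CM libraries were below all others of the same genotype. Against rmGM-CSF, the log2 fold change was -0.40 (SE 0.07, edgeR adjusted p = 0.000369) in STAT5fl/fl and -0.29 (SE 0.06, adjusted p = 0.000732) in STAT5cKO. The first was lost without mouse 112 (-0.36, adjusted p = 0.0172) and the second without mouse 116 (-0.26, adjusted p = 0.0172). Against DMEM the log2 fold changes of -0.24 (SE 0.07, adjusted p = 0.0124) and -0.15 (SE 0.06, adjusted p = 0.0486) were not called. With the mouse as a replicate block the first was called (-0.24, adjusted p = 0.00921), as it was by DESeq2 (adjusted p = 0.00947) and by limma voom with the mouse as a random effect (0.00959).

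The 2 STAT5 genes differed in their own responses in STAT5fl/fl. Stat5a was at 29.0 and 30.3 CPM with DMEM, 45.1 and 42.9 CPM with rmGM-CSF and 44.7 and 39 CPM with 4T1 CM. All stimulated libraries were above both DMEM libraries, with log2 fold changes of 0.57 (SE 0.11, edgeR adjusted p = 0.000263) for rmGM-CSF and 0.50 (SE 0.11, adjusted p = 0.000671) for 4T1 CM. The first call was lost without mouse 112 or 113 (0.50 and 0.64, adjusted p = 0.0367 and 0.0117) and the second without mouse 112 (0.36, adjusted p = 0.106). Stat5b was at 65.6 and 69.8, 60.9 and 61.6, and 67.5 and 77.8 CPM, and neither response passed the test (log2 fold changes -0.15 and 0.10, adjusted p = 0.233 and 0.388). The difference between the responses of Stat5a and Stat5b was not tested.

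No response of a member differed between the genotypes in the test of the difference itself. For rmGM-CSF against DMEM, edgeR called 0 of 7 interactions (3.11% of all tested genes), 1 had an unadjusted p under 0.05, and DESeq2 called 0. That 1 was Stat3, whose response was smaller by 0.18 (log2, SE 0.08) in STAT5cKO (unadjusted p = 0.0459, adjusted p = 0.327). For 4T1 CM against DMEM, edgeR called 0 of 7 (1.27% of all genes, 165 genes, or 302 with the replicate block), with 0 at an unadjusted p under 0.05 and 0 by DESeq2. Stat4 had the widest intervals, with differences of 0.55 (95% interval -0.16 to 1.27) for rmGM-CSF and 0.50 (-0.12 to 1.13) for 4T1 CM, so a sizable difference was not excluded by these data. For Stat6 the intervals ran from -0.24 to 0.10 and from -0.21 to 0.12.

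Counts of called genes in lists of the pathway stand against shares of all tested genes called by genotype of 9.8% with rmGM-CSF (6.24% lower, 3.57% higher), 7.7% with 4T1 CM (3.57% lower, 4.13% higher) and 2.49% with DMEM (1.55% lower, 0.938% higher). The medians of all tested genes were 0.00, 0.01 and 0.00 on the log2 scale. Of 35 cytokine receptor chains listed, 25 were expressed above the filter. With rmGM-CSF, 7 of the 25 were lower and 1 higher in STAT5cKO, against these 9.8% of all genes, and the median log2 fold change was -0.10. Without mouse 113, 4 were lower and 0 higher, and the higher call was also lost without mouse 115 or 116. The common beta chain of the GM-CSF receptor, Csf2rb, was at 1671 ± 14.2 CPM (SD, n = 2) in STAT5fl/fl and 720.3 ± 53.5 CPM (SD, n = 3) in STAT5cKO (log2 fold change -1.21, SE 0.07, edgeR adjusted p = 1.92e-09). The interleukin-4 receptor chain that JAK1 binds and STAT6 docks on, Il4ra, was at 208 ± 0.238 and 74.9 ± 3.64 CPM (-1.48, SE 0.08, adjusted p = 4.39e-10). Csf2rb2, a chain used with the IL-3 receptor, was lower too (-0.73, SE 0.07, adjusted p = 8.29e-07). With 4T1 CM, 3 chains were lower and 1 higher (7.7% of all genes), with a median of -0.04, Csf2rb among the lower ones (-0.61, SE 0.07, adjusted p = 1.85e-05), while Il4ra did not pass (-0.13, adjusted p = 0.284). These became 1 lower and 0 higher without mouse 112 or 113 and in a model of the 4T1 CM libraries alone. With DMEM 1 of 25, Il6ra, was called lower, near the 2.49% of all genes (-0.24, SE 0.05, adjusted p = 0.00966). That call was lost when any 1 of the 5 mice was left out (adjusted p = 0.0335 to 0.189), with TMM (0.0104), without the filter, in a model of the DMEM libraries alone, with limma voom and in the legacy fit.

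All 19 listed inhibitors of the pathway were tested. With rmGM-CSF, 7 were lower and 1 higher in STAT5cKO (median log2 fold change -0.03, 9.8% of all genes called), and with 4T1 CM 4 were lower and 1 higher (median -0.07, 7.7% of all genes). The higher call with rmGM-CSF was lost without mouse 112, and that with 4T1 CM without mouse 112, 113, 114 or 115. The lower calls with rmGM-CSF became 6 without mouse 114 or 115. Those with 4T1 CM became 3 without mouse 114 and in a model of the 4T1 CM libraries alone. Both counts also fell without mouse 112 or 113, which leaves 1 STAT5fl/fl library per group. The lower ones included the suppressors of cytokine signaling Cish, Socs2 and Socs3. Cish was at 148 ± 2.30 CPM in STAT5fl/fl and 2.29 ± 0.327 CPM in STAT5cKO with rmGM-CSF, 63.6-fold lower (edgeR adjusted p = 8.61e-17), and 17.6-fold lower with 4T1 CM (adjusted p = 1.33e-13). Socs3, which restrains receptors that use STAT3, was at 667 ± 19.3 against 171 ± 9.40 CPM with rmGM-CSF (3.90-fold lower, adjusted p = 2.32e-13) and at 311 ± 0.684 against 209 ± 6.61 CPM with 4T1 CM (1.49-fold lower, adjusted p = 5.14e-06). With DMEM 1 of the 19 was called (2.49% of all genes), Socs6, at 1.67-fold lower (adjusted p = 3.22e-06). Of 9 STAT cofactors, edgeR called 0, 0 and 1 with DMEM, rmGM-CSF and 4T1 CM, at an unadjusted p under 0.05 it gave 0, 1 and 1, and DESeq2 called 0, 0 and 1. The single cofactor call, Ncoa1, was lost without mouse 113, 114 or 115, and 1 of 9 is to be read against 7.7% of all genes.

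Lists of genes known as targets of STAT5, STAT3, STAT6 and the type I interferon complex were set beside the levels of the STATs. No such list was made for STAT4. Of 9 STAT5 targets tested, 7 were lower and 1 higher in STAT5cKO with rmGM-CSF (median log2 fold change -1.07, 9.8% of all genes called), 5 were lower with 4T1 CM (median -0.44, 7.7% of all genes), and 0 were called with DMEM (median 0.21), where edgeR gave 3 at an unadjusted p under 0.05 and DESeq2 called 2. Without each mouse in turn, 7 stayed lower with rmGM-CSF, while the higher call was lost without mouse 113 and 3 were lower with 4T1 CM without mouse 113. Ccl17 was at 23.2 ± 2.04 CPM in STAT5fl/fl with rmGM-CSF and at 0 or 1 count in each STAT5cKO library. Of 12 STAT3 targets, 4 were lower and 0 higher with rmGM-CSF (median -0.28, 9.8% of all genes called), and 5 were higher and 2 lower with 4T1 CM (median 0.19, 7.7% of all genes). The 5 higher calls with 4T1 CM became 0 without mouse 112 and in a model of the 4T1 CM libraries alone, 1 without mouse 113, and 3 without mouse 114, 115 or 116, and the 2 lower ones became 1 without mouse 113, 114 or 115. With DMEM 0 were called (median 0.18), with 4 at an unadjusted p under 0.05 and 3 called by DESeq2. Nfil3, a transcription factor of that list, was 3.56-fold lower with rmGM-CSF (adjusted p = 2.47e-09) and 1.38-fold higher with 4T1 CM (adjusted p = 0.00171). The latter was lost without mouse 112 (0.35 log2, adjusted p = 0.0326) and in a model of the 4T1 CM libraries alone (0.46 log2, adjusted p = 0.0173).

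Of 11 STAT6 targets tested, 6 were lower in STAT5cKO with rmGM-CSF (median log2 fold change -1.48, 9.8% of all genes called) and none was higher. With 4T1 CM 2 were lower and 1 higher (median -0.13, 7.7% of all genes), and the higher call, Klf4, was lost without mouse 112 or 113. With DMEM 1 was lower, Mrc1 (list median -0.02, 2.49% of all genes), and this call was lost without mouse 112, 113 or 115, while 3 were lower without mouse 114. Egr2, a macrophage transcription factor induced by IL-4, was 2.68-fold lower with rmGM-CSF (edgeR adjusted p = 2.76e-09) and 4.09-fold lower with 4T1 CM (adjusted p = 5.98e-10). In these treatments the Stat6 transcript was above the STAT5fl/fl libraries in every STAT5cKO library, by margins that edgeR did not call. A link between the levels of Stat6 and Egr2 was not tested. Of 18 targets of the type I interferon complex, 0 were called with DMEM, 2 higher and 1 lower with rmGM-CSF, and 0 with 4T1 CM, with medians of -0.05, 0.00 and -0.06 (2.49%, 9.8% and 7.7% of all genes called). The higher calls with rmGM-CSF were Usp18, lost without mouse 112 (adjusted p = 0.0176), and Oas3, lost without mouse 112, 113 or 116 (0.0427, 0.0257 and 0.0118). At an unadjusted p under 0.05, edgeR gave 5 of these with DMEM and 4 with 4T1 CM, and DESeq2 called 2 and 2. The lists share genes: Il4ra stands in the receptor, STAT3 and STAT6 lists, Cish and Socs2 among inhibitors and STAT5 targets, and Socs3 among inhibitors and STAT3 targets. Il2ra stands among receptor chains and STAT5 targets, and Usp18 among inhibitors and interferon targets. The higher inhibitor with rmGM-CSF is thus Usp18, the same call as 1 of the 2 higher interferon targets. The lists hold general knowledge, but they were chosen with earlier results of these data known, so their counts are not an independent test. They do not show which STAT binds a gene in these cells.

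**Figure D5:**
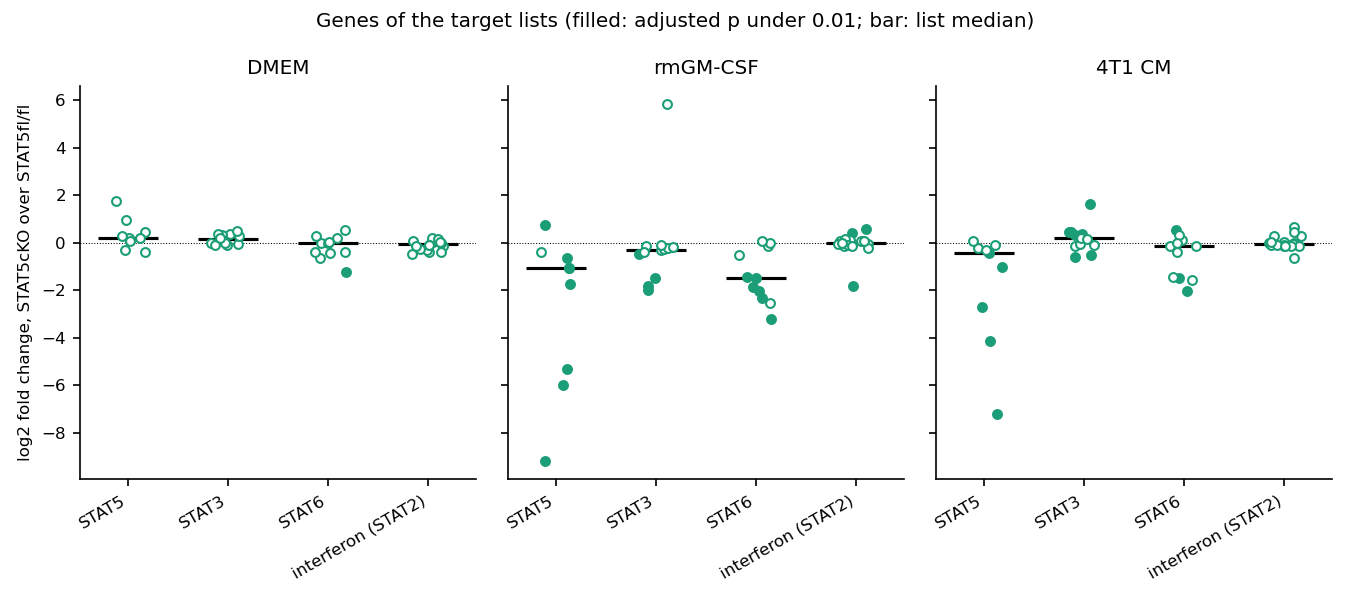
Log2 fold change of STAT5cKO over STAT5fl/fl (vertical axis) for each tested gene of the STAT5, STAT3, STAT6 and type I interferon target lists, by treatment, with filled points where the edgeR adjusted p was under 0.01 and a bar at the list median. With rmGM-CSF the medians of the STAT5 list (-1.07) and the STAT6 list (-1.48) lie lowest, while the interferon list stays at 0.00. The lowest point with rmGM-CSF and 4T1 CM is Ccl17, at no more than 1 count in a STAT5cKO library, and the open point near the top with rmGM-CSF is Il10, at 0 in both STAT5fl/fl libraries and named here after its value was seen, so the heights of these points depend on the prior count of the fit.

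Across the 15 libraries the members fell along the treatments. On the log2 CPM scale Stat3 went with Jak3 (Pearson r = 0.94), Jak1 (0.87), Stat2 (0.87) and Stat4 (0.86), whereas Tyk2 had negative coefficients with Jak3 (-0.72) and Stat3 (-0.55), and Stat6 was closest to Jak1 (0.56). Among all tested genes, the closest to Stat3 were Srgn (0.995), Cd86 (0.992) and Aff1 (0.992), to Jak3 Mt1, Fcgr1 and Hist1h1c (0.981 to 0.988), and to Stat4 Etv1, Slc11a1 and Micall2 (0.971 to 0.981). For Jak1 they were Ywhag, D17Wsu92e and Ptpn7 (0.983 to 0.991), and for Stat2 Slfn5, Cd33 and Eif4e (0.933 to 0.941). Stat6 had Parp3, Psmd3 and Slc4a7 (0.943 to 0.960) and Tyk2 had Sh3bp1, Clk3 and Zmiz2 (0.945 to 0.952). The points share mice and the same 3 treatments, which differ more than the genotypes do, so these coefficients describe likeness across 6 groups and carry no test.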

How the data were processed

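Stranded RNA-seq libraries were made from the BMDMs. The authors trimmed the reads with Trimmomatic 0.33, aligned them to GRCm38 with HISAT2 2.1.0 and counted fragments per gene and strand with featureCounts 1.6.2, requiring a mapping quality of 10. The deposited values are raw counts without normalization for 55385 genes, of which 55144 matched a symbol. A deposited column of summed exon length was used for FPKM. The study's methods exclude a STAT5fl/fl replicate on quality grounds, which is not analysed here. Counting error alone makes 3 counts the floor of detection, 0.131 to 0.187 CPM per library.

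Analysis in R 4.3.3 used edgeR 4.0.16, after the study's methods: CPM over 1 in at least 2 libraries (13005 genes), relative log expression normalization (factors 0.945 to 1.08), and a single model of 6 groups (biological coefficient of variation 0.0787). The quasi-likelihood F test of edgeR version 4 was used, with Benjamini-Hochberg adjustment over all tested genes in each comparison and a threshold of 0.01. The SE was the log2 fold change over the square root of F. Alternatives were TMM normalization, no filter, DESeq2 1.42.0, models of single comparisons, a threshold of 0.05, limma 3.58.1 voom with the mouse as a random effect (correlation 0.0681), the mouse as a replicate block, leaving out each mouse, and, added after the data were seen, the legacy quasi-likelihood fit. Leaving out a STAT5fl/fl mouse leaves 1 library per group, assumed to vary like the other groups. The scripts were tested on simulated data.

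Libraries of the same mouse deviated together from their group means (correlations of 0.0926 to 0.213 in 6 STAT5fl/fl pairs and 0.0548 to 0.214 in 9 STAT5cKO pairs, with 4 and 7 over 0.1). Nothing says that cultures of a mouse were separate beyond treatment, so p-values measure the spread between these libraries.

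The members and lists were chosen with earlier results of these data known. Named genes are the 9 members, at most 3 called genes per list and comparison with the smallest adjusted p, the 3 genes most correlated with each member, and others where said. Some genes of these families are not reported here. Promoter windows come from RefSeq.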

Additional observations from a re-analysis of the deposited data

Results flagged for a closer look

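Under the rule for named genes, 12 genes of the receptor, inhibitor and target lists had responses that differed between STAT5cKO and STAT5fl/fl by a test of the difference itself (edgeR interaction, adjusted p under 0.01). No member did. The rule keeps at most 3 genes per list and comparison. For rmGM-CSF, 3.11% of all tested genes were called. Of 25 receptor chains, 3 were lower and 1, not named here, higher, and of 19 inhibitors 3 were lower. Lower targets were 4 of 9 for STAT5, 6 of 12 for STAT3, 5 of 11 for STAT6 and 1 of 18 for interferon. For 4T1 CM, 1 chain, 2 inhibitors, 2 STAT5 targets and 1 STAT6 target were lower and 1 inhibitor higher (1.27% of all). The values below are log2 differences, the response in STAT5cKO minus that in STAT5fl/fl. For rmGM-CSF against DMEM, the receptor chains Il4ra, Csf2rb and Csf2rb2 had -1.46 (SE 0.11, adjusted p = 3.34e-07), -1.15 (SE 0.10, 1.79e-06) and -0.61 (SE 0.10, 0.000953). The inhibitors Socs3, Socs2 and Cish had -1.90 (SE 0.15, 5.45e-07), -5.76 (SE 0.60, 9.03e-06) and -6.20 (SE 0.65, 9.53e-06). Pim1, a kinase induced by STAT5, had -1.26 (SE 0.15, 3.48e-05), Nfil3 -1.73 (SE 0.17, 4.17e-06), Egr2 -1.05 (SE 0.13, 6.09e-05), Clec10a, a lectin of IL-4-treated macrophages, -1.88 (SE 0.35, 0.00245) and the chemokine Cxcl10 -1.75 (SE 0.25, 0.000242).

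For 4T1 CM against DMEM, Csf2rb had -0.55 (SE 0.10, adjusted p = 0.00641), Cish -4.34 (SE 0.61, 0.000641), Socs2 -3.13 (SE 0.52, 0.00226) and Egr2 -1.66 (SE 0.14, 8.14e-06), while Socs6 was the other way, at 0.62 (SE 0.09, 0.00109). With DMEM, Cish was near the floor in both genotypes (means of 0.179 and 0.203 CPM, 2 to 6 counts) and Socs2 was low (means of 0.599 and 0.820 CPM, 9 to 23 counts), so the sizes of their differences depend on few counts. Without mouse 112 or 113, Csf2rb2 with rmGM-CSF (adjusted p = 0.0296 and 0.0412), Clec10a (0.0239 and 0.0252), Csf2rb with 4T1 CM (0.0826 and 0.148) and Socs6 (0.0213 and 0.0477) were no longer called. Without mouse 113, Cxcl10 (0.0128), Cish with 4T1 CM (0.0119) and Socs2 with 4T1 CM (0.0213) were no longer called. The same held for Clec10a without mouse 116 (0.0127), for Csf2rb with 4T1 CM without mouse 114 or 115 (0.0163 and 0.0297), and for Socs2 with 4T1 CM without mouse 114 or 115 (0.0317 and 0.0200). With the mouse as a random effect (limma voom), Socs2 with 4T1 CM was not called (0.0117), and in a model of the compared libraries alone neither Socs2 (0.0105) nor Csf2rb (0.0196) was.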

How the results depend on the processing

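With 2 STAT5fl/fl mice, differences of about 0.2 on the log2 scale lay near the threshold. Over 83 values of single members and 1058 alternatives, 985 kept direction and side of the threshold, 36 lost the call, 20 gained it and 17 changed sign, none of them a called value. TMM moved the median of all genes by under 0.01. Of the 7 genes, the genotype comparison called 1 instead of 0 with DMEM by DESeq2 or at an adjusted p under 0.05. With rmGM-CSF it called 2 instead of 1 without the filter, by DESeq2, in a model of its own libraries, at 0.05 and with the legacy fit. With 4T1 CM it called 2 by DESeq2, 0 in a model of its own libraries and 3 at 0.05. The causes were not tested, beyond the smaller number of libraries in those models. Leaving out each mouse gave 0 to 1 called with rmGM-CSF and with 4T1 CM for genotype, 1 to 4 for rmGM-CSF against DMEM and 2 to 4 for 4T1 CM against rmGM-CSF in STAT5fl/fl, and 3 to 5 for rmGM-CSF against DMEM in STAT5cKO.

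With TMM, Stat2 for genotype with rmGM-CSF was 0.00048 instead of -0.01. The log2 values that changed sign when a mouse was left out ranged from -0.0406 to 0.0318 (Jak1, genotype, DMEM), from -0.0647 to 0.0434 (Stat2) and from -0.0158 to 0.137 (Tyk2) for genotype with rmGM-CSF, and from -0.0115 to 0.10 (Jak1, 4T1 CM against rmGM-CSF, STAT5fl/fl). For the interactions they ranged from -0.0994 to 0.0738 (Tyk2), from -0.0676 to 0.0715 (Jak3) and from -0.0316 to 0.219 (Stat2) with rmGM-CSF, and from -0.0894 to 0.128 (Stat2) and from -0.201 to 0.0301 (Jak3) with 4T1 CM. The replicate block could be fitted to treatment comparisons and interactions but not to the genotypes within a treatment, whose mice differ. Among members it changed a single call, Tyk2 for 4T1 CM against DMEM in STAT5fl/fl (-0.24, adjusted p = 0.00921 against 0.0124). The pairing moved no count of members by over 1.5 times, but took all genes called for the 4T1 CM interaction from 165 to 302. Over all genes, calls for genotype moved with DESeq2 from 324 to 557 (DMEM), with models of single comparisons from 1001 to 280 (4T1 CM), and at 0.05 to 910, 2145 and 1957. The interaction counts of 404 and 165 became 622 and 423 at 0.05, and 165 became 363 with DESeq2 and 79 in a model of its own libraries. Without mouse 112 or 113 the genotype calls over all genes were 76 and 47 (DMEM), 784 and 546 (rmGM-CSF) and 601 and 334 (4T1 CM), and the interactions 173 and 134 (rmGM-CSF) and 48 and 24 (4T1 CM). Without mouse 115 or 116 the counts with DMEM were 188 and 171 and the rmGM-CSF interactions 262 and 255, and without mouse 114, 115 or 116 the 4T1 CM interactions were 90 to 99. The shares of all genes given beside the members rest on the fit of all 15 libraries.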
